A study of Homo sapiens with 12 samples.

Results

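SPTLC3, SLC13A5, MPC1, RHBG and TRIM50 are 5 of the 10940 genes counted in HepG2 cells, and they were chosen by their measured levels, as genes whose messenger RNA was lower after iron had been put back into a plasma-like medium lacking trace elements. That difference is therefore given below as a description, without a test. All 5 passed the filter on low counts, TRIM50 only through the media where its level was high, and 10459 genes were left to test. HepG2 is an established human line from a liver cancer, with wild-type genotype in every library. The cells were seeded in EMEM (Eagle's minimum essential medium, in which the line was also maintained) and after 24 h were given 1 of 4 media. These were EMEM, Plasmax (a medium modelled on the nutrients of human plasma), Plasmax-TE (Plasmax without its trace elements) and Plasmax-TE+Fe (the medium without trace elements, with iron added). All 4 carried 10% heat-inactivated fetal bovine serum, which itself brings some metals and proteins, were renewed after 48 h, and the cells were harvested at 96 h. The 3′ ends of messenger RNA were sequenced and counted per gene, in 3 libraries per medium.

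The genes act at different points of liver metabolism. SPTLC3 is a catalytic subunit of serine palmitoyltransferase, the enzyme that joins serine to a fatty acyl-CoA in the first step of sphingolipid synthesis, and it takes the place of SPTLC2 in the complex. SLC13A5 brings citrate from the blood into hepatocytes together with sodium, where citrate can feed the synthesis of fatty acids and sterols. MPC1 pairs with MPC2 to form the carrier that takes pyruvate across the inner mitochondrial membrane. RHBG is an ammonium transporter of the Rh glycoprotein family, found in the plasma membrane of liver and kidney cells. TRIM50 is a ubiquitin ligase of the tripartite motif family. Iron reaches cells mainly bound to transferrin and is built into haem, iron-sulfur clusters and the active sites of oxygen-dependent enzymes.

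The sequences before the start sites are shown because the 5 genes moved in the same directions across the media. RefSeq (GRCh38.p14) gave a promoter for 4 of the 5, and SPTLC3 had no entry. Each line holds the 250 bases before the annotated start, 5′ to 3′ on the strand of the gene, with capitals marking the match to a searched motif. The coordinates are those of GRCh38.p14, while the counts were made on hg19 (GRCh37), and no position was carried from one build to the other. RefSeq and GENCODE 29 place some starts differently: of the 250 bases shown, 250 of TRIM50, 198 of SLC13A5, 73 of MPC1 and 0 of RHBG lie inside the gene as GENCODE 29 draws it.
SLC13A5 (chr17:6713370-6713619, minus strand): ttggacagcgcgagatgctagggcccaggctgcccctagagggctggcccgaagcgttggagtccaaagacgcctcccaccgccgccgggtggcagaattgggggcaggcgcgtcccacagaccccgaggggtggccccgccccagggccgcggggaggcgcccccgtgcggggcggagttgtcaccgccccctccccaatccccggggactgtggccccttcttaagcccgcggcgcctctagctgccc
MPC1 (chr6:166382941-166383190, minus strand): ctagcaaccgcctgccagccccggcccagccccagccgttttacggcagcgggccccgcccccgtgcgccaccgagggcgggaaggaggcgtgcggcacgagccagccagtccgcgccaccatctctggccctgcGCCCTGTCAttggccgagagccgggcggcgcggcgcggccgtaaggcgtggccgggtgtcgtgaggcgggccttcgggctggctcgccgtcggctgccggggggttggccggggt
RHBG (chr1:156368961-156369210, plus strand): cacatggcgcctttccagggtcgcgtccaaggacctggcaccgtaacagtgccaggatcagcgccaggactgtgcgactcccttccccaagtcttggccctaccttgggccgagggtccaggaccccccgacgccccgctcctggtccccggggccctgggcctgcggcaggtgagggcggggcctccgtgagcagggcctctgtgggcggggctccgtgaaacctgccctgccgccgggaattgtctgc
TRIM50 (chr7:73325576-73325825, minus strand): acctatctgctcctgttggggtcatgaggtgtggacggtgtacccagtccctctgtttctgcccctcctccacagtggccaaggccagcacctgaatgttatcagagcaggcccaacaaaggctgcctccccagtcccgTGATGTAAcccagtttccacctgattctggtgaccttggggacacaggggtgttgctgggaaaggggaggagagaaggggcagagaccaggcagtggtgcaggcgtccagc

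SLC13A5, MPC1 and RHBG have GC-rich windows, with 74.0%, 77.6% and 70.8% G or C and 23, 34 and 18 CpG dinucleotides. TRIM50 has 59.6% G or C and 3 CpG dinucleotides, against medians of 58.0% and 11 over the 35116 promoters of the table. On both strands 8 motifs were searched: the sterol response element TCACNCCAC, the hypoxia response element core ACGTG, the E-box CACGTG (which contains ACGTG, so these matches overlap), the amino acid response element TGATGNAA, the antioxidant response element core TGACNNNGC, the oestrogen-related receptor element TCAAGGTCA, the HNF4 site CAAAGTCCA and the HNF1 site. MPC1 held the antioxidant response element core, on the strand opposite to the gene, starting 115 bases before the start (GCCCTGTCA as printed), and 10.9% of all promoters hold this motif. TRIM50 held the amino acid response element, TGATGTAA at 111 bases before the start, as did 3.14% of all promoters with the letters TGATGNAA. SLC13A5 and RHBG held none of the 8, so no motif searched was shared by the 4 windows. The other 6 motifs occurred in 0.883%, 18.5%, 6.34%, 0.319%, 0.325% and 0.0484% of all promoters, in the order given. A match is a run of letters and not a measured binding site.

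Total counts ran from 1562125 to 2384090 per library, so 1 count was worth 0.419 to 0.640 CPM (counts scaled to a common library total). Levels below are CPM scaled with TMM factors, as mean ± SD of 3 libraries, and are compared between media and not between genes. The first Plasmax-TE library and the second Plasmax-TE+Fe library (replicates 1 and 2 of their media, library numbers 87 and 88) stood apart on principal component 2 (-35.5 and -32.0, against -8.1 to 19.6 in the other 10), and the members' differences with iron are given with and without them. Whether the 3 libraries of a medium stem from separate cultures is not stated, so the p-values reflect a spread between libraries that may be technical. Of 6 iron genes (TFRC, FTH1, FTL, HAMP, SLC40A1 and SLC11A2) 0 passed in Plasmax-TE+Fe against Plasmax-TE by edgeR, DESeq2 or limma-voom, with 0 at an unadjusted p under 0.05. By edgeR 2 (HAMP and TFRC) fell in Plasmax against EMEM, and 1 rose in Plasmax-TE against Plasmax. HAMP stood at 45.7 ± 12.4 CPM in EMEM, 7.04 ± 1.07 in Plasmax, 80.5 ± 29.1 in Plasmax-TE and 76.3 ± 10.5 in Plasmax-TE+Fe (n = 3 each). All 10 hepatocyte markers listed were counted (among them ALB, APOA1 and TTR). Their summed level was 34047 to 38226 CPM in EMEM, 10262 to 11793 in Plasmax, 21008 to 23041 in Plasmax-TE and 15658 to 17056 in Plasmax-TE+Fe. This sum, to which ALB gave most, was higher in Plasmax-TE than in Plasmax and Plasmax-TE+Fe, as were the 5 genes, but unlike them its 4 media did not overlap and Plasmax-TE lay below EMEM. Single markers differed: by edgeR 6 fell and 1 (SERPINA1) rose in Plasmax against EMEM, 5 rose and 1 (SERPINA1) fell in Plasmax-TE against Plasmax, and 0 rose and 1 (FGB) fell with iron. The part of these markers' shift in the levels of the 5 genes was not tested. Of 7 fibroblast and stellate cell markers 3 were counted, summing to 32 to 78 CPM over all libraries. Of 9 blood and endothelial markers 3 were counted (CD14, CD68 and LYZ), which summed to 751 to 2536 CPM and which hepatocytes can also express.

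SPTLC3 (ENSG00000172296, chromosome 20) stood at 94.8, 100.8 and 96.7 CPM in the EMEM libraries (97.4 ± 3.05, n = 3). In Plasmax it was 24.4, 24.0 and 24.6 CPM, a mean of 24.4 ± 0.326 (n = 3) and the tightest of its 4 groups. Every Plasmax library lay below every EMEM library, with a mean 4.0 times lower. Without trace elements SPTLC3 was at 109.2, 70.0 and 75.5 CPM (84.9 ± 21.2, n = 3). With iron it was at 27.9, 52.3 and 23.9 CPM (34.7 ± 15.4, n = 3). The libraries that stand apart were each the highest of their group, and the means without them were 72.8 CPM in Plasmax-TE and 25.9 CPM in Plasmax-TE+Fe. With or without them, every Plasmax-TE library lay above every Plasmax-TE+Fe library. EMEM and Plasmax-TE overlapped through Plasmax-TE replicate 1 alone, and the other 2 Plasmax-TE libraries lay below every EMEM library. Plasmax and Plasmax-TE+Fe overlapped with or without the libraries that stand apart. Levels in bulk RNA do not tell fewer cells with the transcript from less of it per cell.

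SLC13A5 (ENSG00000141485, chromosome 17) was measured at 166.6, 128.0 and 120.8 CPM in EMEM (138.5 ± 24.7, n = 3). Plasmax gave 65.7, 37.0 and 64.1 CPM (55.6 ± 16.2, n = 3), with replicate 2 the lowest of all 12 libraries. In Plasmax-TE the 3 libraries gave 127.0, 139.2 and 123.2 CPM (129.8 ± 8.31, n = 3). Plasmax-TE+Fe brought 69.1, 63.6 and 65.1 CPM (66 ± 2.85, n = 3), close together. The 6 libraries of EMEM and Plasmax-TE lay between 120.8 and 166.6 CPM and the 6 of Plasmax and Plasmax-TE+Fe between 37.0 and 69.1 CPM, with no value in between. The exons of SLC13A5 share 344 bases with those of C17orf100 on the other strand (GENCODE 29). The sources used here do not give whether the counting used strand, so reads of the shared stretch cannot be told apart. C17orf100 itself was at 24.2 ± 8.39 CPM in EMEM, 14.8 ± 3.88 in Plasmax, 12.4 ± 4.4 in Plasmax-TE and 15 ± 3.87 in Plasmax-TE+Fe (n = 3 each), and passed the test in none of the 3 comparisons below (edgeR, adjusted p = 0.095, 0.67 and 0.88).

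MPC1 (ENSG00000060762, chromosome 6) had 165.3, 145.9 and 154.2 CPM in EMEM (155.1 ± 9.76, n = 3) and 65.1, 51.5 and 53.5 CPM in Plasmax (56.7 ± 7.37, n = 3). Levels in Plasmax-TE were 138.9, 149.5 and 164.5 CPM (151 ± 12.9, n = 3), overlapping with those in EMEM. With iron they were 95.8, 80.1 and 77.6 CPM (84.5 ± 9.87, n = 3). MPC1 was the single member whose 3 Plasmax-TE+Fe libraries all lay above the 3 Plasmax libraries. Without overlap, its Plasmax libraries were lowest, those of Plasmax-TE+Fe lay in between, and those of EMEM and Plasmax-TE were highest. The share of all genes with media separated in such ways was not counted. Nothing is therefore read from a separation of media in MPC1 or in any other member.

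RHBG (ENSG00000132677, chromosome 1) was at 101.9, 84.6 and 88.2 CPM in EMEM (91.6 ± 9.11, n = 3). The Plasmax libraries lay within 2 CPM of each other, at 47.6, 46.5 and 48.3 CPM (47.5 ± 0.931, n = 3). Plasmax-TE held 95.2, 100.1 and 82.5 CPM (92.6 ± 9.06, n = 3). Plasmax-TE+Fe held 52.0, 55.4 and 40.3 CPM (49.2 ± 7.94, n = 3), on both sides of the Plasmax values. RHBG thus lay between 82.5 and 101.9 CPM in EMEM and Plasmax-TE and between 40.3 and 55.4 CPM in the other 2 media.

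TRIM50 (ENSG00000146755, chromosome 7) had few reads, with 29, 28 and 42 counts in EMEM and 7, 7 and 13 in Plasmax. As CPM these were 18.6, 11.9 and 19.8 (16.8 ± 4.25, n = 3) and 4.38, 3.50 and 6.04 (4.64 ± 1.29, n = 3). In Plasmax-TE 30, 34 and 29 counts gave 16.2, 15.3 and 15.8 CPM (15.7 ± 0.478, n = 3). In Plasmax-TE+Fe 11, 6 and 10 counts gave 4.72, 3.08 and 4.97 CPM (4.26 ± 1.03, n = 3). The lowest and the highest count have exact 95% Poisson intervals of 2.20 to 13.1 and of 30.3 to 56.8, which cover counting error only. The high and the low pair of media did not overlap, and within each pair the libraries did.

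**Figure D1:**
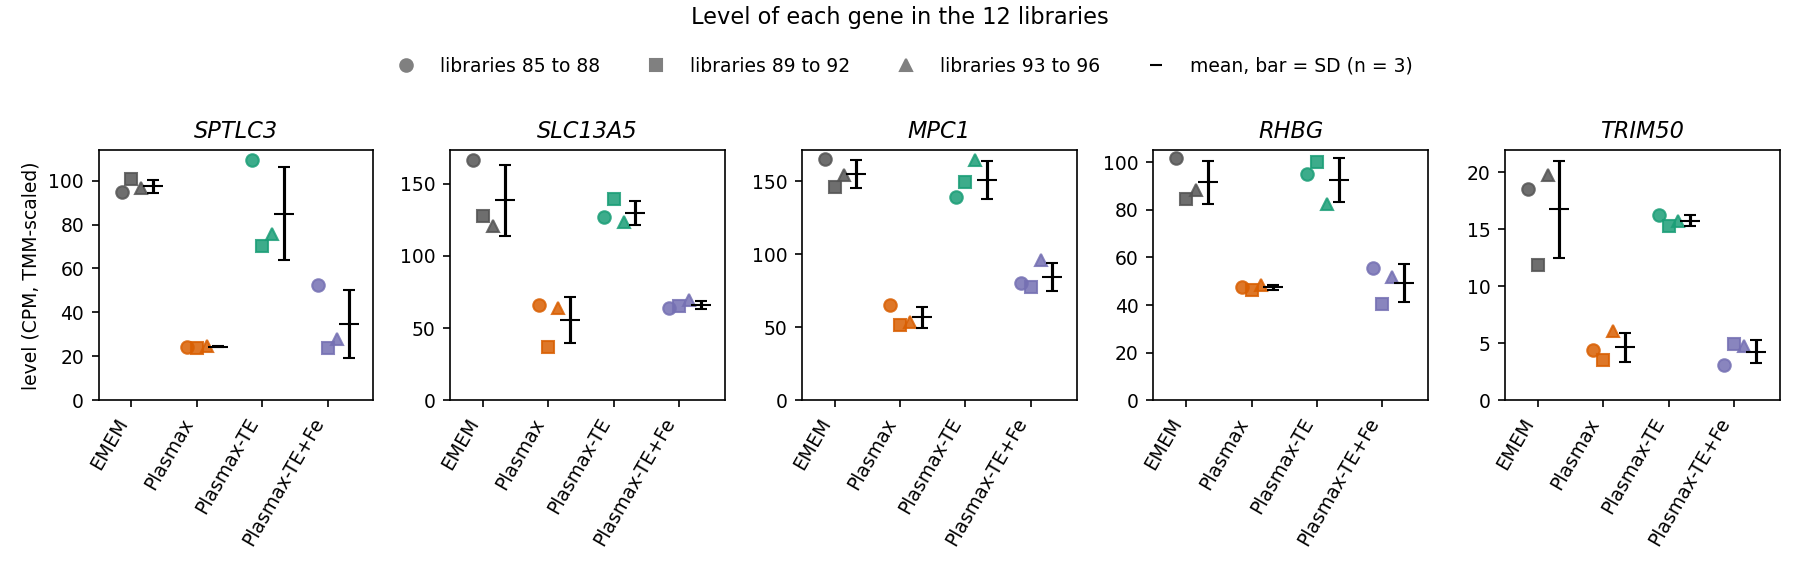
Levels of the 5 genes in CPM (TMM-scaled, vertical axes from 0, 1 panel per gene) in the 4 media, with 1 symbol per library, shaped by run of library numbers, and the mean and SD (n = 3) beside them. In every panel EMEM and Plasmax-TE are high and Plasmax and Plasmax-TE+Fe low.

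The comparison of Plasmax with EMEM asks how a plasma-like medium changes the cells' transcripts. It shares no library with the difference that chose the genes and was the one in which they were tested. The spread of each gene was, however, estimated from all 12 libraries, among them those behind the choice, which can favour a small spread. All 5 fell in Plasmax by edgeR's quasi-likelihood test, with p-values adjusted over all 10459 genes by the Benjamini-Hochberg method. Of all genes tested, 11.5% were called lower and 21.4% in either direction. SPTLC3 changed by -2.0 ± 0.24 on the log2 scale (± SE, adjusted p = 6.6e-06, edgeR), 4.0 times lower in Plasmax. TRIM50 changed by -1.81 ± 0.32 (adjusted p = 0.00042, edgeR), 3.61 times lower, with the largest SE of the 5. Its place among the genes tested rests on EMEM and Plasmax-TE, since it passed the filter through its higher counts there. With no such filter its adjusted p was 0.0004 (edgeR). MPC1 changed by -1.46 ± 0.16 (adjusted p = 1.8e-06, edgeR), which is 2.74 times. SLC13A5 changed by -1.31 ± 0.19 (adjusted p = 5.5e-05, edgeR), or 2.49 times. The smallest of the 5 was RHBG, with -0.94 ± 0.16 (adjusted p = 0.00032, edgeR) and 1.93 times. The median of the 5 was -1.46, against -0.01 over all genes tested. Each was lower in 3 of 3 Plasmax libraries than in any EMEM library. How many of all genes were separated in this way was not counted, so nothing is read from it. An exact permutation test of 3 against 3 cannot go below p = 0.1, so the adjusted p-values rest on the spread shared across genes. A fit of the 6 EMEM and Plasmax libraries alone leaves out the libraries behind the choice. Its adjusted p-values (edgeR) were 1.8e-07 for SPTLC3, 0.00011 for SLC13A5, 2.1e-06 for MPC1, 0.00028 for RHBG and 0.0009 for TRIM50.

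Taking the trace elements out of Plasmax, and then adding iron, are comparisons that share libraries with the one that chose the genes, so their values are descriptions. In Plasmax-TE against Plasmax 587 genes (5.61%) were called higher. No call is read for the 5, since their choice used the same Plasmax-TE libraries. Log2 differences were 1.8 ± 0.24 for SPTLC3, 1.74 ± 0.32 for TRIM50, 1.42 ± 0.16 for MPC1, 1.23 ± 0.19 for SLC13A5 and 0.96 ± 0.16 for RHBG, with a median of 1.42 against 0.02 over all genes. The Plasmax libraries are also those of the comparison with EMEM. Called in either direction were 1176 genes, and 477 without Plasmax replicate 2, 780 without Plasmax replicate 1 and 744 without Plasmax-TE replicate 1. Between Plasmax-TE and EMEM the log2 differences were within 1 SE of 0 (-0.20 ± 0.21 for SPTLC3, -0.09 ± 0.18 for SLC13A5, -0.04 ± 0.15 for MPC1, 0.02 ± 0.15 for RHBG and -0.08 ± 0.27 for TRIM50), and the libraries overlapped for all 5. For SPTLC3 that overlap rests on Plasmax-TE replicate 1: without the 2 libraries that stand apart its difference was -0.42 ± 0.15 and the groups did not overlap.

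In Plasmax-TE+Fe against Plasmax-TE, the difference behind the choice, 18 genes (0.172% of those tested) were called lower. The 5 are among these by the way they were chosen, so nothing is read from that count. TRIM50 was lower by the widest margin, -1.86 ± 0.32 on the log2 scale or 3.7 times. It was followed by SPTLC3 with -1.29 ± 0.23 (2.45 times), SLC13A5 with -0.98 ± 0.19 (1.97 times), RHBG with -0.91 ± 0.16 (1.88 times) and MPC1 with -0.84 ± 0.15 (1.79 times). Counted from the most negative log2 difference of all 10459 genes, these were ranks 7, 31, 98, 138 and 183. The SPTLC3 value was -1.7 without Plasmax-TE+Fe replicate 2, -1.07 without Plasmax-TE replicate 1, and -1.48 without both. Without both, TRIM50 was at -1.67, RHBG at -0.98, SLC13A5 at -0.97 and MPC1 at -0.85, and of the mean levels RHBG went to 46.1 and TRIM50 to 4.85 CPM in Plasmax-TE+Fe and MPC1 to 157 CPM in Plasmax-TE. The number of genes called in this comparison, 27 in both directions, hung on single libraries. It was 0 without Plasmax-TE replicate 2 or 3 or without Plasmax-TE+Fe replicate 1 or 3 (897, 981, 736 and 549 genes at an unadjusted p under 0.05), and 229 without Plasmax-TE+Fe replicate 2. DESeq2 called 81 and limma-voom 20 with all libraries.

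**Figure D2:**
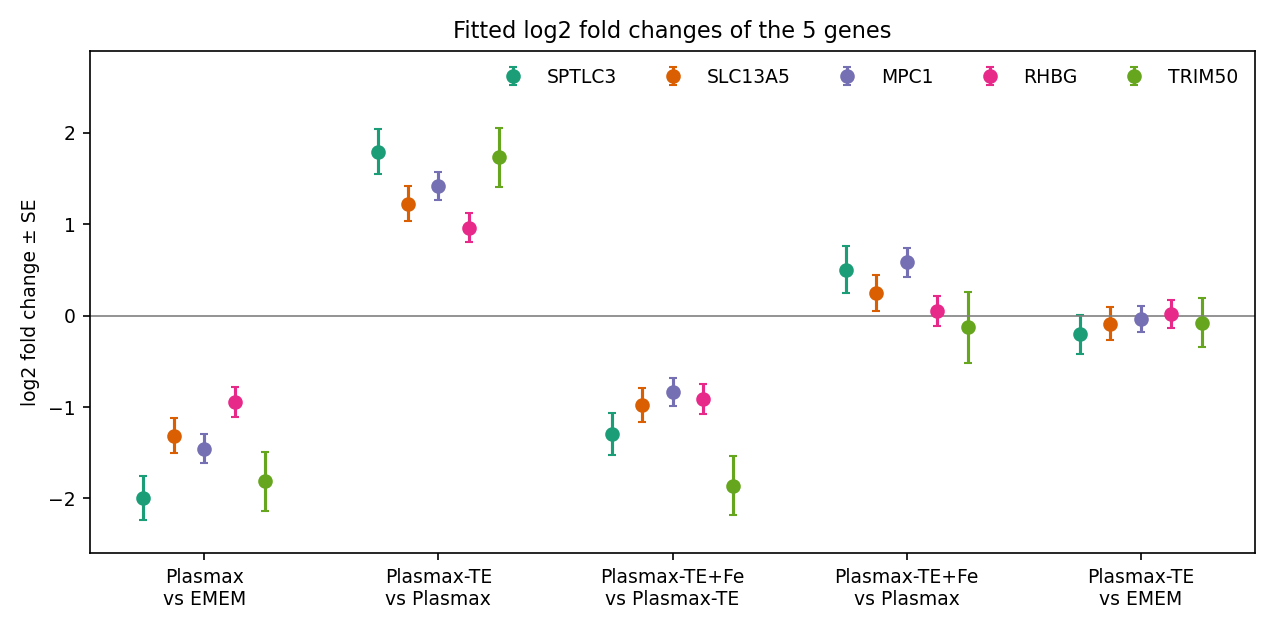
Log2 fold changes of the 5 genes (vertical axis) with their SE as bars, for 5 comparisons between media. Plasmax against EMEM and Plasmax-TE+Fe against Plasmax-TE lie below 0 and Plasmax-TE against Plasmax above 0 for all 5, while Plasmax-TE against EMEM lies within 1 SE of 0.

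The members differed in how far the level with iron lay towards that of complete Plasmax. On the log2 scale the Plasmax-TE+Fe level covered 107% of the distance from Plasmax-TE to Plasmax for TRIM50, 94.6% for RHBG, 79.5% for SLC13A5, 72.1% for SPTLC3 and 58.9% for MPC1. Without the 2 libraries that stand apart the shares were 97.3%, 104%, 77.6%, 94.1% and 57.8% in the same order, so the order of TRIM50, RHBG, SLC13A5 and SPTLC3 rests on those libraries, while MPC1 had the lowest share either way. These shares are ratios of differences with a common group and carry no test. Against Plasmax itself, Plasmax-TE+Fe stood at -0.13 ± 0.39 for TRIM50 and 0.05 ± 0.17 for RHBG, both within 1 SE of 0. SLC13A5 stood at 0.25 ± 0.20. SPTLC3 stood at 0.50 ± 0.26, and at 0.09 ± 0.19 without the 2 libraries, of which Plasmax-TE+Fe replicate 2 had 52.3 CPM. MPC1 stood farthest away, at 0.58 ± 0.16 and at 0.62 ± 0.16 without them.

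The library numbers fall into 3 runs of 4 (85 to 88, 89 to 92 and 93 to 96), each with 1 library of every medium, and the differences were also taken within them. Plasmax was below EMEM in all 3 runs for each gene: by -1.92, -2.03 and -1.93 on the log2 scale for SPTLC3, by -1.33, -1.76 and -0.90 for SLC13A5, and by -1.33, -1.48 and -1.51 for MPC1. For RHBG the 3 values were -1.08, -0.85 and -0.85, and for TRIM50 -1.86, -1.52 and -1.56. The difference between Plasmax-TE+Fe and Plasmax-TE was negative in every run too, which the choice of the genes favours. Its values went from -1.05 to -1.51 for SPTLC3, from -0.82 to -1.08 for SLC13A5 and from -0.77 to -0.94 for MPC1. It ran from -0.66 to -1.29 for RHBG and from -1.45 to -2.08 for TRIM50. The libraries that stand apart are both in the first run, whose SPTLC3 difference was the smallest of the 3 (-1.05) although both of its levels were the highest of their media.

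**Figure D3:**
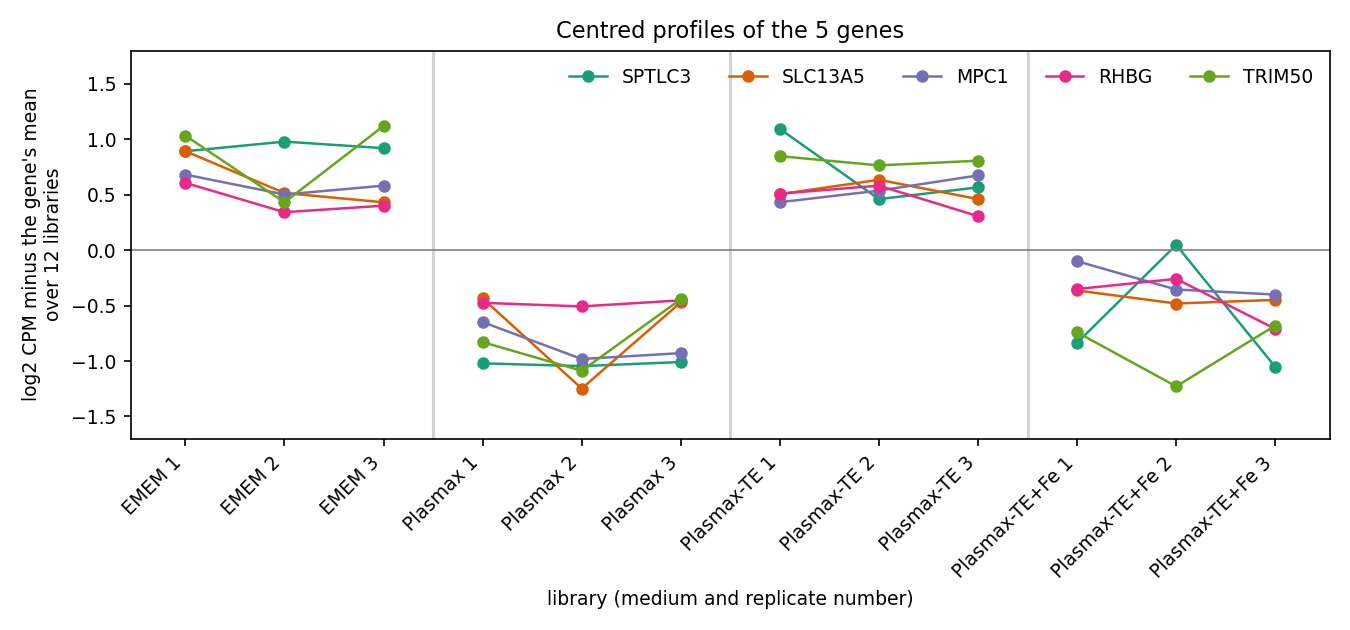
Log2 CPM of the 5 genes in the 12 libraries (horizontal axis, ordered by medium), centred on the gene's own mean. The 5 lines lie above 0 in the 6 libraries of EMEM and Plasmax-TE and below 0 in those of Plasmax and Plasmax-TE+Fe, except SPTLC3 in Plasmax-TE+Fe replicate 2.

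As a measure of likeness, the root mean square difference between centred log2 CPM profiles over the 12 libraries was taken to the 9926 other genes that averaged 5 CPM or more. Among the 5 themselves, SLC13A5 and MPC1 were closest (0.21), followed by SLC13A5 and RHBG (0.26) and MPC1 and RHBG (0.27), and the remaining pairs lay at 0.38 to 0.48. Just 1 gene was nearer to SLC13A5 than MPC1 was, and 5 were nearer to MPC1 than SLC13A5 was. The nearest genes to SPTLC3 were the scavenger receptor SCARA3 (0.25), the lipoprotein assembly protein MTTP (0.27) and the death receptor ligand TNFSF10 (0.28), where the median gene lay at 0.92. MTTP stood at 76.2 ± 6.70, 22.6 ± 1.44, 55.2 ± 15.4 and 31.7 ± 8.16 CPM in EMEM, Plasmax, Plasmax-TE and Plasmax-TE+Fe (n = 3 each). SLC13A5 had TCEA3 (0.20), sarcosine dehydrogenase SARDH (0.22) and galactokinase GALK1 (0.22) as its nearest, with a median of 0.69. Next to MPC1 were the apolipoprotein APOH (0.16), HSDL2 (0.18) and the fatty acid oxidation enzyme HADH (0.19), with a median of 0.68. RHBG was most like AMDHD2 (0.14), the peroxisomal thiolase ACAA1 (0.16) and ZNF16 (0.16), with a median of 0.56. TRIM50 had its nearest genes at a greater distance, CRYL1 (0.36), the zinc transporter SLC39A5 (0.37) and SLC25A42 (0.39), with a median of 0.92. A profile that varies little is near to many genes, and these distances carry no test.

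The closest relatives of the members did not all share their pattern. SPTLC2, the subunit whose place SPTLC3 takes, was at 51.9 ± 10.4 CPM in EMEM, 62.1 ± 8.58 in Plasmax, 58.1 ± 9.73 in Plasmax-TE and 49.6 ± 12 in Plasmax-TE+Fe (n = 3 each). Neither it (0.25 ± 0.20 in Plasmax against EMEM, adjusted p = 0.40, edgeR) nor SPTLC1, the partner subunit of both, passed the test in any of the 3 comparisons. SLC13A3, the dicarboxylate transporter of the same family as SLC13A5, had 162.5 ± 6.07, 45.3 ± 4.27, 80.3 ± 11.5 and 47.3 ± 3.0 CPM in the same order of media. It fell in Plasmax (-1.85 ± 0.16, adjusted p = 1.1e-07, edgeR), rose in Plasmax-TE against Plasmax (0.83 ± 0.16, adjusted p = 0.0021) and was called lower with iron (-0.77 ± 0.16, adjusted p = 0.037), a call that limma-voom did not make (adjusted p = 0.054). MPC2, the partner of MPC1, had 62.5 ± 4.22, 31.2 ± 3.67, 47.5 ± 2.15 and 35.4 ± 5.61 CPM. MPC2 fell in Plasmax (-1.01 ± 0.17, adjusted p = 0.00031, edgeR) and rose without trace elements (0.61 ± 0.18, adjusted p = 0.031), while with iron it stood at -0.42 ± 0.17 (adjusted p = 0.45). TRIM74, a near copy of part of TRIM50, was at 2.83 to 4.88 CPM on average and did not pass in any of the 3. Of the 451 stretches of 50 bases in the last 500 bases of each member's longest coding transcript (GENCODE 29), 0 occurred in the transcripts of another gene. Only the sense strand was searched, and other 3′ ends of the members were not.

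The rest of each pathway was followed with lists that leave the members out. Of 26 further sphingolipid genes tested, 4 rose and 2 fell in Plasmax against EMEM (median log2 fold change 0.13), 0 rose and 2 fell in Plasmax-TE against Plasmax (0.01), and 0 passed with iron (0.05). In Plasmax the lysosomal activator PSAP rose (0.45 ± 0.12, adjusted p = 0.011, edgeR), as did ORMDL1 (0.58 ± 0.16, adjusted p = 0.016). ORMDL3, like ORMDL1 a regulator of serine palmitoyltransferase, fell (-0.49 ± 0.13, adjusted p = 0.012), and the sphingosine kinase SPHK2 fell (-1.06 ± 0.33, adjusted p = 0.025), a call that limma-voom did not make. Without trace elements the sphingosine phosphate lyase SGPL1 fell (-0.94 ± 0.17, adjusted p = 0.0013, edgeR) and so did PSAP (-0.48 ± 0.12, adjusted p = 0.014). SPTLC3 lay below all 26 in Plasmax against EMEM. It lay above all 26 in Plasmax-TE against Plasmax, a place that its choice favours.

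Among 25 genes of citrate transport and the citric acid cycle, 1 rose and 4 fell in Plasmax (median -0.06), 2 rose and 0 fell without trace elements (0.00), and with iron 0 rose and 1, SLC13A3, fell (-0.05). The NADP-dependent isocitrate dehydrogenases fell in Plasmax, IDH1 by -0.77 ± 0.14 (adjusted p = 0.00069, edgeR) and IDH2 by -1.09 ± 0.21 (adjusted p = 0.0010). SLC25A1, which exports citrate from mitochondria, changed by -1.03 ± 0.23 (adjusted p = 0.0031, edgeR). IDH1 rose in Plasmax-TE against Plasmax (0.49 ± 0.14, adjusted p = 0.032, edgeR). SLC13A3 was the one gene of the 25 lower than SLC13A5 in Plasmax against EMEM.

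Of 23 genes of pyruvate metabolism, 1 rose and 9 fell in Plasmax (median -0.46), 3 rose and 1 fell without trace elements (0.15), and 0 passed with iron (0.06). Besides MPC2, those that fell in Plasmax included the lactate exporter SLC16A3 (-1.23 ± 0.16, adjusted p = 2.4e-05, edgeR), PCK1, which starts gluconeogenesis from oxaloacetate (-2.50 ± 0.46, adjusted p = 0.00059), and the alanine aminotransferase GPT2 (-0.96 ± 0.21, adjusted p = 0.0029). Without trace elements the pyruvate dehydrogenase subunit PDHB rose (0.59 ± 0.17, adjusted p = 0.027, edgeR), pyruvate carboxylase PC rose (0.75 ± 0.24, adjusted p = 0.047) and pyruvate kinase PKM fell (-0.97 ± 0.27, adjusted p = 0.027). DESeq2 did not call PC (adjusted p = 0.084) or PKM (adjusted p = 0.080), and without the 2 libraries that stand apart PDHB (edgeR, adjusted p = 0.074) and PC (adjusted p = 0.051) were not called. MPC1 lay above all 23 in that comparison, a place that its choice favours. PCK1 and PDK3 were the 2 below MPC1 in Plasmax against EMEM.

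Of 13 genes of ammonium transport and ammonia metabolism, 2 rose and 4 fell in Plasmax (median -0.40), 4 rose and 1 fell without trace elements (0.49), and 0 passed with iron (-0.35). Glutamine synthetase GLUL fell in Plasmax (-0.96 ± 0.14, adjusted p = 5.1e-05, edgeR), as did glutamate dehydrogenase GLUD1 (-1.07 ± 0.18, adjusted p = 0.00023). The urea cycle enzyme ARG1 had 10, 21 and 22 counts in EMEM and 0 in each Plasmax library, at least 16.4-fold lower when 3 counts over the Plasmax group are taken as the limit. Without trace elements GLUD1 rose (0.81 ± 0.18, adjusted p = 0.0059, edgeR). CPS1, which brings ammonia into the urea cycle, rose (1.14 ± 0.26, adjusted p = 0.0085, edgeR), as did the glutamine transporter SLC38A3 (0.93 ± 0.26, adjusted p = 0.026), though SLC38A3 not without the 2 libraries that stand apart (adjusted p = 0.083). RHBG was not at the end of its list. In Plasmax against EMEM 4 of the 13 lay below it (ARG1, GLUD1, GLUL and SLC38A3), and 2 lay above it in Plasmax-TE against Plasmax.

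Of 26 other TRIM genes, 1 rose and 3 fell in Plasmax (median 0.09), 3 rose and 0 fell without trace elements (0.04), and 0 passed with iron (0.08). TRIM47 fell in Plasmax (-0.75 ± 0.18, adjusted p = 0.0047, edgeR) and rose without trace elements (0.79 ± 0.18, adjusted p = 0.0069). TRIM24 fell (-0.76 ± 0.19, adjusted p = 0.0084, edgeR) and TRIM33 fell (-0.43 ± 0.15, adjusted p = 0.042), while TRIM25 rose in Plasmax (0.47 ± 0.16, adjusted p = 0.038). TRIM50 lay below all 26 in Plasmax against EMEM. It lay above all 26 in Plasmax-TE against Plasmax, a place that its choice favours. For the lists with 0 calls with iron by edgeR, unadjusted p-values under 0.05 were held by 2 higher and 1 lower sphingolipid genes, 1 and 2 pyruvate genes, 0 and 3 ammonia genes and 1 and 4 TRIM genes. DESeq2 and limma-voom also called 0 in these 4 lists. With the library-number block 1 pyruvate gene (PKM, higher) was called with iron, 2 citrate genes were called lower in place of 1 (IDH1 besides SLC13A3, as with DESeq2) and 4 hepatocyte markers in place of 1 (3 with DESeq2). Without the 2 libraries that stand apart 1 TRIM gene (TRIM13, lower) was called. The medians over all genes tested were -0.01, 0.02 and 0.00 in the 3 comparisons, and called genes made up 9.90% (higher) and 11.5% (lower) of all genes in the first, 5.61% and 5.63% in the second (11.2% in all) and 0.0861% and 0.172% in the third (0.258% in all).

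**Figure D4:**
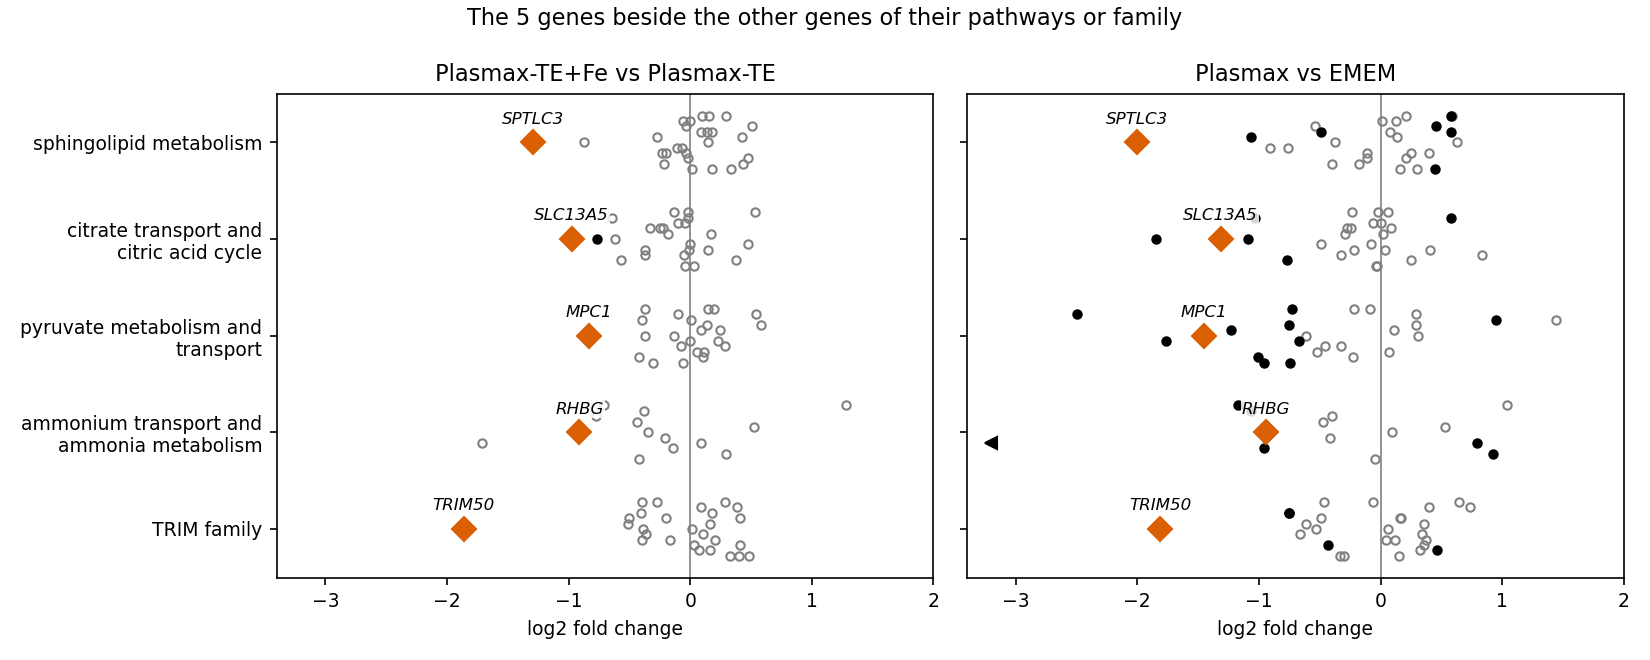
Log2 fold changes (horizontal axes) of the pathway genes, by list, in Plasmax-TE+Fe against Plasmax-TE and in Plasmax against EMEM, with the members as orange diamonds, called genes in black and genes that did not pass as open grey circles. The place of the members with iron follows from their choice; in Plasmax against EMEM, SPTLC3 and TRIM50 lie left of every gene of their lists, and the triangle marks ARG1, whose fitted value lies beyond the axis because it had 0 counts in Plasmax.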

How the data were processed

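Total RNA of HepG2 cells in 4 media gave 12 QuantSeq 3′ libraries, 3 per medium. Per the submitters' processing notes, the tools included STAR 2.7.5b, featureCounts 1.6.3, cutadapt 1.16, FastQC 0.72 and limma 3.40.6, with the build hg19 (GRCh37). The sources used here do not give the annotation or the strand setting. The authors deposited raw counts of reads per gene, with no normalization. Of 10994 entries 54 repeated ones were dropped, leaving 10940 genes. In every gene 3 libraries or more reached 4.04 CPM, so low genes had been removed before deposit.

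Groups came from the labels. Analysis used edgeR 4.0.16 in R 4.3.3: filterByExpr (minimum count 10, minimum total 15) removed 481 genes, TMM factors scaled the libraries, and all 12 libraries entered 1 quasi-likelihood model of the 4 media, with 8 residual degrees of freedom. Tests were two-sided, and a gene was called when its p, adjusted by Benjamini-Hochberg over 10459 genes, was under 0.05. The SE is the size of the log2 fold change over the square root of the F statistic. Log2 CPM for profiles, run differences and principal components used a prior count of 2.

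The members and gene lists were chosen with earlier results of these data known. Named besides the members are their closest relatives, the 3 genes of nearest profile, and up to 4 called genes of lowest p per list, some of which are not reported here. The procedure was tested on simulated data. Alternatives were DESeq2 1.42.0, voom of limma 3.58.1, RLE factors, unscaled library size, other filters, blocks, fewer libraries and each library left out.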

Additional observations from a re-analysis of the deposited data

How the results depend on the processing

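All 5 genes kept their direction in all 3 comparisons under every alternative run (15 for Plasmax against EMEM, 16 for each of the others). In the 2 comparisons with Plasmax-TE the choice of the genes favours this, so nothing is read from it. All 5 stayed past the threshold in Plasmax against EMEM. There their highest adjusted p was 0.00016 for SPTLC3, 0.0008 for SLC13A5, 8.9e-05 for MPC1, 0.0042 for RHBG and 0.0057 for TRIM50 (edgeR, DESeq2 or limma). TRIM50 in Plasmax-TE against Plasmax reached 1.99 on the log2 scale without Plasmax replicate 3. Counts of called genes moved more. In Plasmax-TE against Plasmax the 1176 became 1859 with the library-number block (runs of 4 consecutive libraries), and 477 to 990 with 1 library left out (477 without Plasmax replicate 2, 780 without Plasmax replicate 1 and 744 without Plasmax-TE replicate 1). In Plasmax-TE+Fe against Plasmax-TE the 27 became 81 with DESeq2, 152 with the library-number block, 99 without the 2 libraries that stand apart, and 0 with the 6 libraries compared alone (776 at an unadjusted p under 0.05, edgeR). Leaving out 1 library gave 0 to 229 there, with 0 without Plasmax-TE replicate 2 or 3 or Plasmax-TE+Fe replicate 1 or 3, and 229 without Plasmax-TE+Fe replicate 2. In Plasmax against EMEM the 2233 ran from 1489 to 1996 with 1 library left out. The cause of these shifts was not tested. The replicate block gave 2079, 1024 and 19 called genes in the 3 comparisons. The numbers are treated as shared by label alone, since the deviations of same-numbered libraries correlated at 0.10, 0.09 and 0.07 in Plasmax and EMEM and at -0.43, -0.29 and 0.15 in the 2 media without trace elements. As a hint from the data, 6 of 6 libraries correlated best with their own number in Plasmax against EMEM and in Plasmax-TE against Plasmax, and 0 of 6 in Plasmax-TE+Fe against Plasmax-TE. There 6 of 6 did so with their own run of library numbers (0.53, 0.22 and 0.38). In the other 2 comparisons replicate number and run coincide, so 6 of 6 in each also correlated best with their own run. The main model held no term for the run. Depth limits TRIM50 most, with 6 to 42 counts per library.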

Other observations

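Besides the 5 genes, 13 were called lower in Plasmax-TE+Fe than in Plasmax-TE, and they were singled out after their values were seen. Of these, 12 were also called lower in Plasmax against EMEM, a comparison without a shared library. With the 5, that made 17 of 18 (94.4%), where 11.5% of all genes tested were called lower in Plasmax. The 17 are 1.42% of the 1198 genes called lower there. Both comparisons used the spread of each gene over all 12 libraries, so a gene called in 1 of them is favoured in the other. The 11.5% is therefore no matched background, and nothing is read from the 94.4%. As given above, the calls with iron hung on single libraries. The glyoxylate-detoxifying transaminase AGXT changed by -2.12 ± 0.39 on the log2 scale with iron and by -3.80 ± 0.35 in Plasmax. The sulfotransferase SULT2A1 changed by -1.07 ± 0.19 and -4.01 ± 0.21. The fatty acid-binding protein FABP1 changed by -0.94 ± 0.16 and -2.03 ± 0.16, and the FGF co-receptor KLB by -0.95 ± 0.19 and -1.92 ± 0.19. The valine catabolic enzyme ALDH6A1 stood at -1.05 ± 0.20 and -1.75 ± 0.20. Of the 18, the fibrinogen gene FGB alone was not called lower in Plasmax, with -0.99 ± 0.20 with iron and 0.21 ± 0.20 in Plasmax.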
